A study of Rattus norvegicus with 10 samples.

Results

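The genes that form voltage-gated sodium channels, voltage-gated calcium channels and hyperpolarization-activated (HCN) channels were followed in the prefrontal cortex of 10 rats. They were chosen by symbol, as every gene whose single platform symbol starts with Cacn or Hcn or reads Scn, a digit and a or b, apart from Scn4b. Of 14217 genes with a probe set of 1 symbol, 38 met this rule, and each was represented by its probe set of highest mean over the 10 arrays. All 38 matched a RefSeq gene of the same symbol. The measured values of 20 of them lay in the upper 50% of all probe sets by mean (at least 3.99 log2), and only these were tested. The other 18 had means of 1.53 to 3.83 log2 and have no test.

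The rats were untreated males of the inbred Lewis strain, each giving 1 Affymetrix array from a piece of frontal cortex (areas Fr1 and Fr2, without the olfactory bulb), and their age is not stated. They form 1 group with no control: the comparison is between each transcript and behaviour scores that differ between genetically alike animals, namely prepulse inhibition, startle to a sound, sugar feeding and locomotion in 10 rats and a plus maze score in 7, all in unstated units. The values are log2 expression summaries made with GCRMA. A slope below is the change in log2 expression per SD of a score, with its SE, from limma with Benjamini-Hochberg adjustment over the 15521 probe sets kept, and it passes at an adjusted p of 0.05.

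Voltage-gated sodium channels are built around a large pore-forming alpha subunit and start and carry the action potential, while small beta subunits anchor them and tune their gating. Voltage-gated calcium channels pair a pore-forming alpha1 subunit with a cytoplasmic beta and an extracellular alpha2delta subunit, and they turn depolarization into transmitter release, dendritic calcium signals and gene regulation. The gamma genes are a mixed family: some serve muscle channels, and those of the brain mostly encode TARPs, proteins that bring AMPA-type glutamate receptors to the synapse. HCN channels open on hyperpolarization and set the resting conductance and integration of cortical pyramidal cell dendrites.

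Array medians ran from 3.91 to 4.02 log2, and any 2 arrays correlated at 0.996 to 0.999 over all probe sets, where probe sets are not independent replicates. Of the cortical neuron markers, 6 of 7 excitatory and 6 of 6 inhibitory genes lay above the filter, while Th and Eomes, defining markers of olfactory bulb neurons, lay below it in all rats and Cdhr1, the other of that list, stayed at 4.29 to 4.54. Rat 7 stood apart in several ways that bear on the channel genes. It had the highest level of striatal projection neuron markers (1.53 log2 above the mean of all rats, over 8 of 12 listed markers; the other rats ranged between -0.68 and 1.00, and Adora2a, below the filter by its mean, reached 6.48 in rat 7 and 4.48 in rat 4 but at most 2.73 in the rest) and of myelin markers (0.48 over 11 of 12; the others between -0.58 and 0.36). Its 3' to 5' difference, the log2 signal of 3' minus 5' control probe sets for Gapdh and beta-actin and a sign of RNA integrity, was also highest at 1.46, against 1.14 to 1.33 in the others. In bulk tissue, fewer cells of a type and less RNA per cell cannot be told apart, and the counts and slopes that changed most without rat 7 are also given without it.

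The upstream sequences of Cacna1d, Hcn2 and Scn3a are shown. Windows were eligible only if they lay wholly before the annotated gene, which also held for Scn2b, not shown. Cacna1d had the widest spread over rats, Scn3a ran opposite to it in rat 7, and Hcn2 had the highest slope with prepulse inhibition. No link between these traits and the sequences shown was tested. Each is the 250 bases before the annotated gene start on the gene's strand, 5′ to 3′, from RefSeq on GRCr8, at chr16:5527550-5527799 (minus strand) for Cacna1d, chr7:10639458-10639707 (minus strand) for Hcn2 and chr3:70666199-70666448 (minus strand) for Scn3a. Capitals mark GGGCGG or its reverse complement CCGCCC, the core of a GC box, with overlapping matches counted singly.
Cacna1d: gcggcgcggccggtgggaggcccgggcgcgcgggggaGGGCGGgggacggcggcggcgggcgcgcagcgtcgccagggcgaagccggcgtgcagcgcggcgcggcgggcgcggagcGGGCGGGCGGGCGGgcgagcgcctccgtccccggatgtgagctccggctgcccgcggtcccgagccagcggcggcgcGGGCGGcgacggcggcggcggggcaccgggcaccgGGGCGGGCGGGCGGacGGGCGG
Hcn2: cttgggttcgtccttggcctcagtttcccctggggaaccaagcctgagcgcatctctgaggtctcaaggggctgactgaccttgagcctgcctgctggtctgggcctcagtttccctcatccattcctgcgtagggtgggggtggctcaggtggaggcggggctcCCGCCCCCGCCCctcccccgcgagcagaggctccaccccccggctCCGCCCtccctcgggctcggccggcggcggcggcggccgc
Scn3a: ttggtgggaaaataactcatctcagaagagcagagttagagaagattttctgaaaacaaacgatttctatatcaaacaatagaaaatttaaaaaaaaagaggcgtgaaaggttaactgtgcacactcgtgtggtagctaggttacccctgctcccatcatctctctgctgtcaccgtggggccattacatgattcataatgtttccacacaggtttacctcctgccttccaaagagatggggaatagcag
The Cacna1d window was 88.8% G or C and held 9 matches, the Hcn2 window was 71.6% with 3, and the Scn3a window was 41.6% with 0. A window was found for 15 of the 20 tested genes. Apart from those of Cacna1d, Hcn2, Scn3a and Scn2b, these windows did not lie wholly before the annotated gene. This was not looked at for the windows of all rat genes. GGGCGG occurred on either strand in 10 of these 15 (66.7%), against 32.4% of the 27457 rat promoter windows. Their median G and C content was 72%, against 52% over all windows. TATAAA was present in 1 (Cacng2; 6.67%, against 13.1%), and neither TGACGTCA (1.7% of all) nor CACGTG (5.79% of all) was present in any of the 15. These counts describe letters in a fixed window and do not show binding of a factor.

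Each gene is placed by whether its probe set lay above or below the filter, which is not a comparison of levels between genes. Sodium alpha subunits of the brain, Scn1a, Scn2a, Scn3a and Scn8a, lay above the filter, whereas the muscle gene Scn4a, the atypical sodium-sensing gene Scn7a and the peripheral sensory neuron genes Scn9a, Scn10a and Scn11a lay below it. Both measured beta genes, Scn2b and Scn3b, were above. Of 10 calcium alpha1 genes, the P/Q-type Cacna1a, the N-type Cacna1b, the L-type Cacna1c and Cacna1d and the T-type Cacna1g were above. Cacna1e of the R-type, the retinal Cacna1f, the other T-type genes Cacna1h and Cacna1i and the skeletal muscle gene Cacna1s were below. Both alpha2delta genes (Cacna2d1, Cacna2d3) and all 4 beta genes were above. Of the 8 gamma genes, Cacng2 and Cacng3 were above and the others below, and of 3 HCN genes Hcn2 was above, with Hcn3 and Hcn4 below.

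A low value can reflect a weak probe set as well as a weak transcript. In the genes below the filter, the SDs over rats were 0.015 to 0.19 log2. Hcn3 had the widest, from 3.27 in rat 2 to 4.00 in rat 8, with a median of 3.51, and every other rat stayed at or under 3.56. Cacna1e, a presynaptic and dendritic channel gene, stayed between 2.28 and 2.39 log2 in all rats, and Cacng8, a TARP gene, between 1.50 and 1.54.

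**Figure D1:**
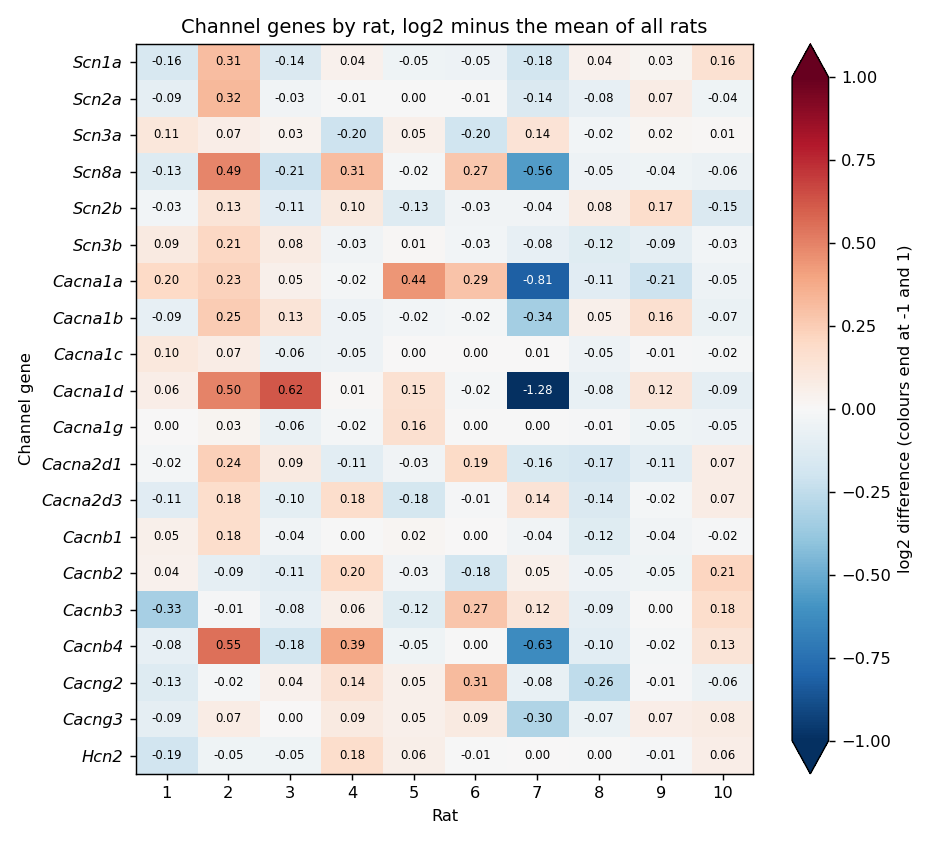
Expression of each of the 20 tested channel genes (vertical) in each of the 10 rats (horizontal), as log2 difference from that gene's mean over all rats, with colours ending at -1 and 1. The deepest values lie in rat 7, at -1.28 for Cacna1d and -0.81 for Cacna1a, and rat 2 is above the mean in most genes.

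Most channel genes were steady between rats. The SD of the 20 tested genes had a median of 0.13 log2, against 0.12 over the 8483 genes tested, and the median span between lowest and highest rat was 1.32-fold in both. The narrowest was Cacna1c, the main L-type channel gene of cortical neurons, at 6.30 to 6.47 log2 (median 6.36), a span of 1.12-fold. An SD over 0.25 was reached by 4 of the 20 genes, against 8.19% of all genes tested, namely Cacna1d, Cacna1a, Cacnb4 and Scn8a.

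Cacna1d, whose L-type channel opens at relatively negative voltages, ran from 4.82 log2 in rat 7 through a median of 6.14 to 6.72 in rat 3, a 3.74-fold span with an SD of 0.51. All other rats lay at 6.01 or above, so that without rat 7 the span was 1.64-fold and the SD 0.25. Cacna1a, the presynaptic P/Q-type gene, ran from 7.69 in rat 7 through 8.52 to 8.94 in rat 5, a 2.39-fold span that was 1.57-fold without rat 7. Cacnb4, a beta subunit gene mutated in the epileptic lethargic mouse, ran from 7.76 in rat 7 through 8.36 to 8.94 in rat 2 (2.27-fold, and 1.66-fold without rat 7). Scn8a, the sodium channel gene of axon initial segments and nodes of Ranvier, ran from 4.95 in rat 7 through 5.46 to 5.99 in rat 2 (2.06-fold, and 1.62-fold without rat 7). The lowest value of all 4 came from the same animal, and rat 2 was highest in Cacnb4 and Scn8a and second highest in Cacna1d.

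Of the next genes by spread, Cacna1b, the N-type gene, had its lowest value of 8.12 in rat 7 too, with the other rats at 8.38 to 8.72 (SD 0.16). Cacnb3, another beta subunit gene, did not share this order: it was lowest in rat 1 at 10.2, had a median of 10.5 and was highest in rat 6 at 10.8, with rat 7 at 10.7 (SD 0.17).

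**Figure D2:**
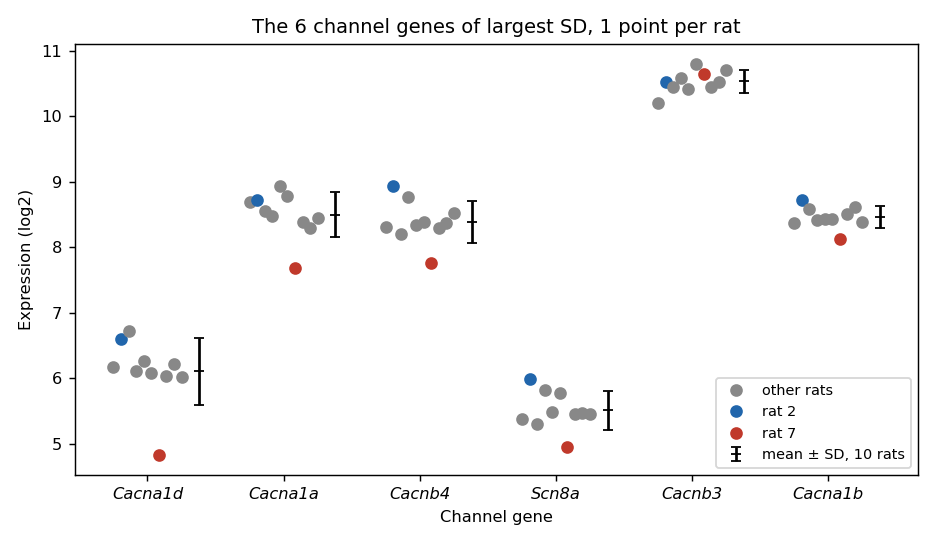
Log2 expression (vertical) of the 6 channel genes of largest SD (horizontal), 1 point per rat, with the mean and SD of 10 rats as a bar at the right of each gene. Rat 7 is the lowest point in Cacna1d, Cacna1a, Cacnb4, Scn8a and Cacna1b but not in Cacnb3; heights of different genes come from different probe sets and are not comparable.

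Over all 20 genes, rat 7 gave the lowest value in 8 (Scn1a, Scn2a, Scn8a, Cacna1a, Cacna1b, Cacna1d, Cacnb4 and Cacng3), against 9.5% of the 8483 genes tested. It was highest in 1, Scn3a, against 15.4% of all genes. Rat 2 gave the highest value in 9 of 20 (Scn1a, Scn2a, Scn8a, Scn3b, Cacna1b, Cacna2d1, Cacna2d3, Cacnb1 and Cacnb4), against 20.9% of all genes. Rat 8 was lowest in 4 (Scn3b, Cacna2d1, Cacnb1 and Cacng2), against 8.89%. These counts are a description, since the rats were singled out after their values were seen, and the genes of a rat are not independent of each other. Of the excitatory neuron markers above the filter, rat 7 was lowest in 3 of 6 (Neurod6, Tbr1 and Fezf2) and highest in 0, and of the inhibitory ones it was lowest in 1 of 6 and highest in 1. The widest gap was in Tbr1, a transcription factor of cortical excitatory neurons, at 6.63 log2 in rat 7, against 7.44 to 7.91 in the others, while Camk2a, a kinase gene of excitatory neurons, was at 12.08 in rat 7, above its mean of 11.84. The part of tissue composition and RNA integrity in the low values of rat 7 was not tested.

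**Figure D3:**
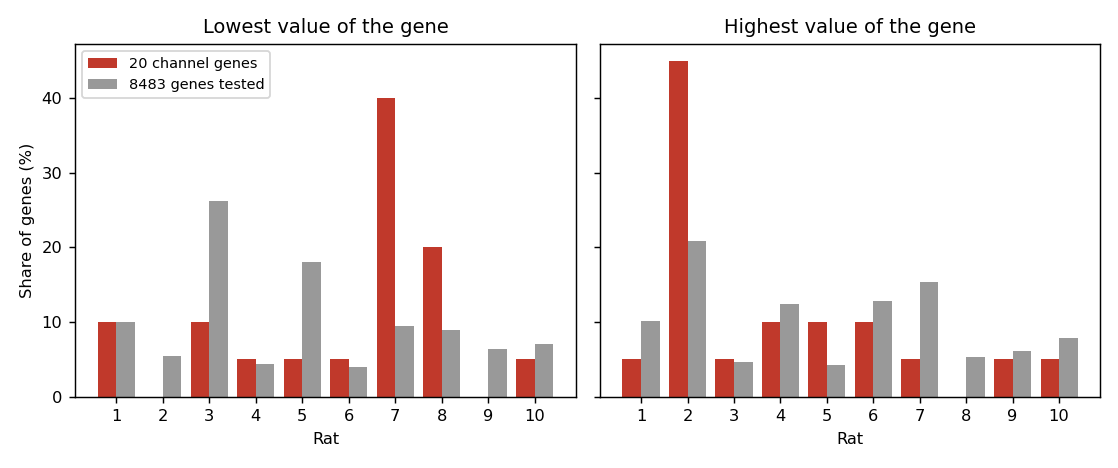
Share of genes (vertical, %) for which each rat (horizontal) gave the lowest value (left) or the highest value (right), for the 20 channel genes (red) and the 8483 genes tested (grey). Rat 7 gave the lowest value in 8 of 20 channel genes and 9.5% of all genes, and rat 2 the highest in 9 of 20 and 20.9%.

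Different probe sets of a gene did not always give the same animal as lowest. A second probe set of Cacna1a had its lowest value, 6.14, in rat 8, with rat 7 next at 6.17 and rat 5 highest at 7.05, and another had rat 8 lowest at 4.55 with rat 7 at 4.85. Scn2b, which encodes a beta subunit joined to the alpha subunit by a disulfide bond, was steady in the probe set used, at 11.3 in rat 10, a median of 11.4 and 11.6 in rat 9. Its other probe set, of lower signal, ran from 4.91 in rat 7 through 5.98 to 6.51 in rat 4, a 3.03-fold span. That lower probe set had the steepest slope of any channel probe set with the 3' to 5' difference, -0.38 ± 0.06 (adjusted p = 0.0549), while the probe set used had -0.03 ± 0.04 (adjusted p = 0.93). Without rat 7 the slope of the lower probe set was -0.19 (adjusted p = 0.239).

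The first comparison asked which channel transcripts follow how strongly a rat startled at a loud sound. None of the 20 channel genes passed limma's adjusted threshold, and neither did any of the 15521 probe sets (0%). At an unadjusted p under 0.05 there were 2 channel genes, against 5.59% of all probe sets, and both slopes were negative, against 4.3% of all probe sets for that direction. Cacnb4 had a slope of -0.20 ± 0.08 (unadjusted p = 0.0274, adjusted p = 0.808). Rat 2, of lowest startle score (363), had its highest value, and rat 7, of highest score (943), its lowest, and the slope was -0.12 without either rat 2 (unadjusted p = 0.164) or rat 7 (unadjusted p = 0.117). Scn3b, a beta subunit gene, ran from 10.6 in rat 8 through 10.7 to 10.9 in rat 2 and had a slope of -0.07 ± 0.03 (unadjusted p = 0.0415, adjusted p = 0.808), with its other probe set at -0.08 ± 0.03. The Scn3b slope was -0.04 without rat 2 (unadjusted p = 0.239) and -0.03 after quantile normalization (unadjusted p = 0.308).

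Slopes with startle were negative in 17 of 20 channel genes, against 62.3% of all probe sets, with medians of -0.03 and -0.02. With arrays centred on their medians it was also 17 of 20, against 62.6%. After quantile normalization of the deposited values the split was 11 negative of 20, against 43.3%. The count thus changed with quantile normalization, as did the share of all probe sets. The steepest slope belonged to Cacna1d at -0.25 ± 0.14 (unadjusted p = 0.0938). Scn8a had -0.15 ± 0.08 and Cacna1a -0.16 ± 0.10. Without rat 7 these were -0.07 for Cacna1d, -0.08 for Scn8a (also -0.08 without rat 2) and -0.04 for Cacna1a. The other Cacna1a probe sets above the filter had -0.08 ± 0.09 and 0.005 ± 0.03 with startle over all rats. On the positive side, Cacnb3 had 0.09 ± 0.05, Cacng2, the stargazin gene whose loss gives the stargazer mouse its seizures and ataxia, 0.03 ± 0.05, and Hcn2 0.02 ± 0.03.

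For prepulse inhibition, the damping of a startle when a softer sound comes just before it, 0 of 20 channel genes passed the adjusted threshold (0% of all probe sets), and 3 had an unadjusted p under 0.05, against 7.41% of all probe sets. Hcn2, an HCN channel subunit gene, was lowest in rat 1 at 4.12 log2, had a median of 4.31 and was highest in rat 4 at 4.49. Rats 1 and 4 also had the lowest and highest prepulse inhibition scores, 6.80 and 42.5. The slope was 0.07 ± 0.03 (unadjusted p = 0.0188, adjusted p = 0.630), and 0.04 without rat 1 (unadjusted p = 0.129) and 0.05 without rat 4 (unadjusted p = 0.0702).

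Scn3b had a slope of -0.08 ± 0.03 with prepulse inhibition (unadjusted p = 0.0177, adjusted p = 0.630), and its second probe set -0.07 ± 0.04. After quantile normalization the Scn3b slope was -0.05 (unadjusted p = 0.169). Cacna2d1, the alpha2delta gene whose product binds gabapentin, ran from 10.3 in rat 8 through a median of 10.5 to 10.7 in rat 2 and had -0.09 ± 0.04 (unadjusted p = 0.0455, adjusted p = 0.667). Cacnb1 followed at -0.05 ± 0.03, and Cacnb3 and Cacnb2 had 0.04 ± 0.05 and 0.03 ± 0.04, which were -0.029 for Cacnb3 without rat 1 and -0.0040 for Cacnb2 without rat 4. Over the set, 12 of 20 slopes were negative, against 58.7% of all probe sets, and 10 of 20 after quantile normalization, against 42.9%.

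**Figure D4:**
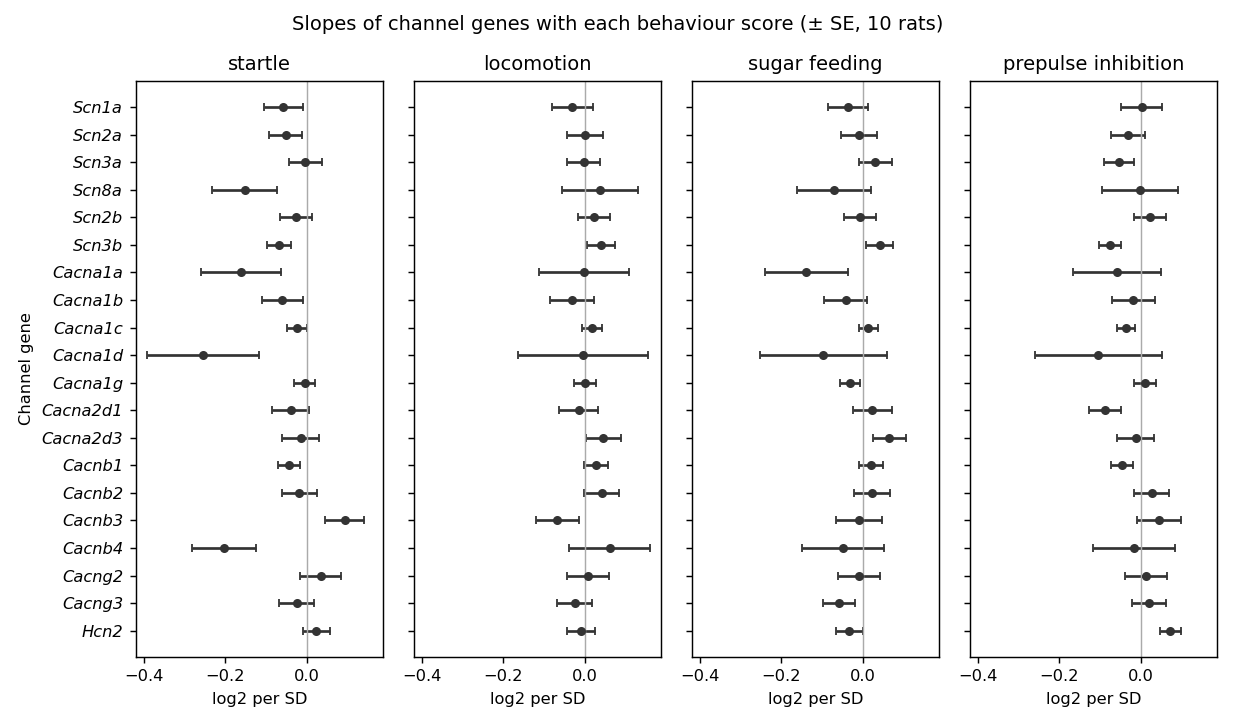
Slope of each of the 20 channel genes (vertical) with startle, locomotion, sugar feeding and prepulse inhibition (panels), in log2 per SD of the score (horizontal), as points with SE bars from 10 rats. No slope passed the adjusted threshold, and the widest bars belong to Cacna1d, whose slope with startle was -0.25 ± 0.14.

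Locomotion and sugar feeding gave no channel gene under an unadjusted p of 0.05, against 2.93% and 2.13% of all probe sets, and none past the adjusted threshold (0% of all probe sets in both). With locomotion, 10 of 20 slopes were negative, against 34.6% of all probe sets, and 12 of 20 after quantile normalization, against 54.2%. The smallest p was that of Cacnb3, at -0.07 ± 0.05 (unadjusted p = 0.228), which was -0.0095 without rat 1 (unadjusted p = 0.847). Cacna2d3, an alpha2delta gene, had 0.05 ± 0.04, Cacnb2 0.04 ± 0.04 and Scn3b 0.04 ± 0.03. Without rat 4, Cacna2d3 was at 0.0095 and Cacnb2 at -0.0037. Scn1a, the sodium channel gene of fast-spiking interneurons, and Cacna1b each had -0.03 ± 0.05, and Scn1a was at -0.0025 without rat 1 and Cacna1b at -0.018 without rat 7.

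With sugar feeding, 13 of 20 slopes were negative, against 41.6% of all probe sets, and also 13 of 20 after quantile normalization, against 52.6%, but 7 of 20 without rat 7, against 40.1%. Cacna2d3 had the smallest p, at 0.07 ± 0.04 (unadjusted p = 0.137), followed on that side by Scn3b at 0.04 ± 0.03 and Scn3a at 0.03 ± 0.04. Cacng3, a TARP gene, had -0.06 ± 0.04, the T-type gene Cacna1g -0.03 ± 0.03, and Cacna1a -0.14 ± 0.10. Without rat 7 the slopes were -0.013 for Cacng3, -0.015 for Cacna1a and 0.012 for Scn3a, and without rat 5 that of Cacna1g was 0.0040.

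The plus maze score, taken in 7 rats, gave 0 of 20 channel genes past the adjusted threshold (0% of all probe sets) and 0 under an unadjusted p of 0.05, against 6.95%. Cacna1g, which carries low-threshold calcium current, ran from 4.58 in rat 3 through 4.64 to 4.81 in rat 5. Rat 5 also had by far the highest plus maze score, 60.3 against at most 20.2 in the others. The slope of Cacna1g was 0.06 ± 0.03 (unadjusted p = 0.0712), Cacna1a had 0.23 ± 0.13 with its highest value in the same rat, Cacna2d3 had -0.08 ± 0.06 and Scn2b -0.04 ± 0.04 (n = 7 rats, limma). Without rat 5 the slopes were -0.0051 for Cacna1g, 0.13 for Cacna1a, -0.0095 for Cacna2d3 and 0.022 for Scn2b. Slopes were negative in 10 of 20 genes, against 60.8% of all probe sets, and in 5 of 20 after quantile normalization, against 51.4%.

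The next fits set the channel genes against levels of marker genes for other tissue in the dissected piece, and no channel gene belongs to any marker list. With the striatal projection neuron level, 0 of 20 channel genes passed the adjusted threshold, against 1.87% of all probe sets, and 4 had an unadjusted p under 0.05, against 14.8%. Cacna1d had -0.40 ± 0.10 (unadjusted p = 0.00183, adjusted p = 0.0728), Cacna1b -0.13 ± 0.04 (adjusted p = 0.139) and Cacna1a -0.24 ± 0.08 (adjusted p = 0.173). Rat 7, of highest striatal level, had the lowest value of all 3, as it had of the sodium pore genes Scn1a, Scn2a and Scn8a, whose slopes were -0.02 (unadjusted p = 0.656), -0.06 (unadjusted p = 0.139) and -0.11 (unadjusted p = 0.206). Without rat 7 the slopes were -0.13 for Cacna1d (unadjusted p = 0.0910), -0.06 for Cacna1b (unadjusted p = 0.137) and -0.07 for Cacna1a (unadjusted p = 0.358). The other Cacna1a probe sets above the filter had -0.07 ± 0.09 (unadjusted p = 0.459) and -0.003 ± 0.03 (unadjusted p = 0.933) over all rats. Cacna1d passed without rat 4 (adjusted p = 0.0360).

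Cacnb2, a beta subunit gene, ran the other way, from 7.44 in rat 6 through 7.59 to 7.84 in rat 10, with a slope of 0.09 ± 0.03 on the striatal level (unadjusted p = 0.0323, adjusted p = 0.283). Rats 10 and 4, which followed rat 7 in striatal level with rat 4 ahead of rat 10, had its highest values, 7.84 and 7.83, and its other probe set above the filter had 0.10 ± 0.04. Hcn2 and Cacna2d3 had 0.06 ± 0.03 and 0.07 ± 0.04. In all, 16 of 20 channel genes had negative slopes with the striatal level, against 47.7% of all probe sets, and 14 of 20 after quantile normalization, against 40.1%, but 11 of 20 without rat 7, against 48.4%.

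The myelin level gave 0 of 20 channel genes past the adjusted threshold, against 2.15% of all probe sets, and 2 under an unadjusted p of 0.05, against 16%. Cacna1d had -0.40 ± 0.10 (adjusted p = 0.0659) and Cacna1b -0.13 ± 0.04 (adjusted p = 0.0997). Without rat 7 the Cacna1d slope was -0.22 with an unadjusted p of 0.000887 (adjusted p = 0.0815), so that its order over the other rats ran the same way: rats 3 and 2, of lowest myelin level, had its highest values, 6.72 and 6.60. Scn3b had -0.06 ± 0.03, Cacnb3 0.09 ± 0.05, Cacnb2 0.06 ± 0.04 and Hcn2 0.05 ± 0.03. Slopes were negative in 14 of 20 channel genes, against 40.8% of all probe sets, and in 10 of 20 without rat 7, against 38.5%. The striatal and myelin levels are both highest in rat 7. With the striatal level as a covariate in the myelin fit, no channel gene passed, and 8 of the 15521 probe sets did. The share of each level in these slopes was not tested further.

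**Figure D5:**
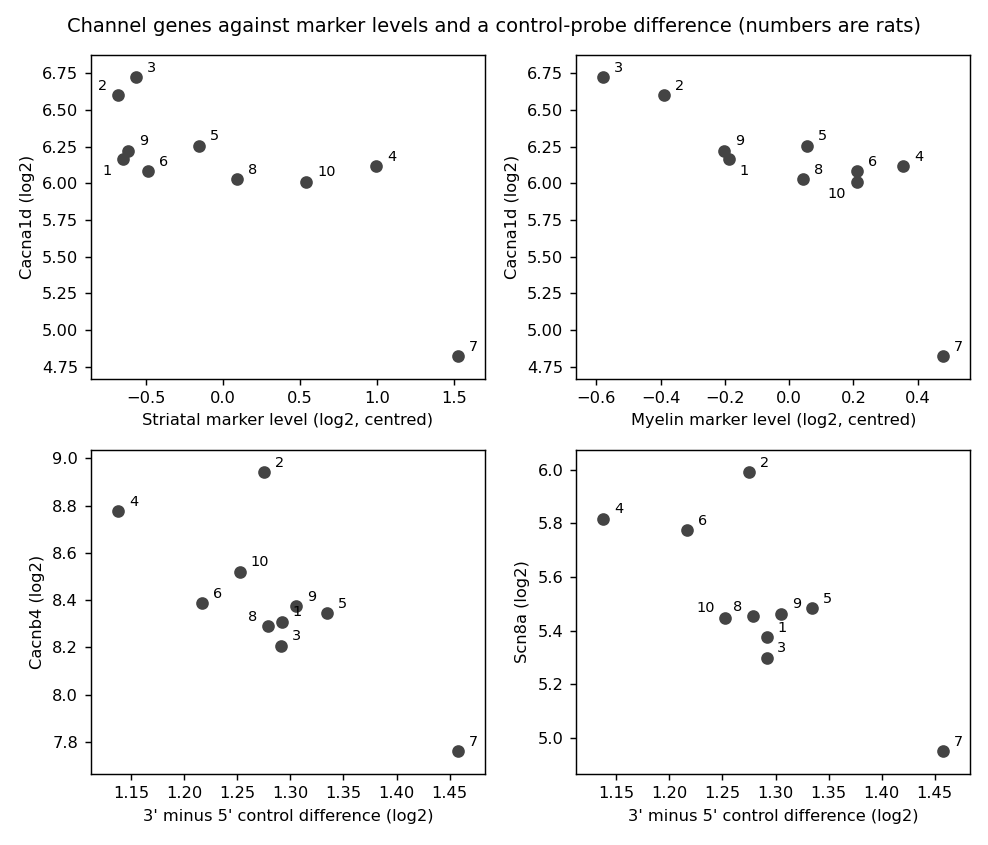
Log2 expression of Cacna1d against the striatal and myelin marker levels (top) and of Cacnb4 and Scn8a against the 3' to 5' control difference (bottom), 1 numbered point per rat. Rat 7 lies apart at the lower right of every panel, and in the myelin panel rats 3 and 2 mark the other end with Cacna1d at 6.72 and 6.60.

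The meningeal level and the level of activity genes such as Arc and Fos gave 0 of 20 channel genes past the adjusted threshold, against 0.142% and 0.0322% of all probe sets, and 0 under an unadjusted p of 0.05, against 3.62% and 2.22%. With the meningeal level, Cacna1b had 0.07 ± 0.05, Cacna1d 0.18 ± 0.15 and Scn2a, the main sodium channel gene of excitatory neurons, 0.04 ± 0.04, while Cacna1g had -0.03 ± 0.03. With the activity level, Scn2b had 0.05 ± 0.04, Cacna1b 0.04 ± 0.05, Cacna1c -0.02 ± 0.02 and Cacna2d1 -0.04 ± 0.05. Slopes were negative in 7 of 20 channel genes with the meningeal level, against 59% of all probe sets, and in 14 of 20 with the activity level, against 61% (12 of 20 after quantile normalization, against 53.8%).

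Among the technical measures, the spike-in level gave 0 of 20 past the adjusted threshold (0% of all probe sets) and 0 under an unadjusted p of 0.05, against 7%, with Cacnb1 closest at 0.05 ± 0.03. Its slopes were negative in 5 of 20 channel genes, against 29.8% of all probe sets, and in 10 of 20 after quantile normalization, against 57.1%. The 3' to 5' difference gave 0 of 20 past the adjusted threshold, against 0.0902%, and 4 under an unadjusted p of 0.05, against 10%. Scn8a had -0.23 ± 0.06 (unadjusted p = 0.00373, adjusted p = 0.190), Cacnb4 -0.24 ± 0.07 (adjusted p = 0.202) and Cacng3 -0.10 ± 0.03 (adjusted p = 0.259). Without rat 7 these were -0.13, -0.12 and -0.03, and Cacnb4 passed without rat 2 (adjusted p = 0.0463).

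Scn3a is a sodium channel gene best known for its high expression in the developing brain. Of the 4 genes with an unadjusted p under 0.05, it was the only 1 with a positive slope. It ran from 9.71 in rat 4 through 9.94 to 10.1 in rat 7. Its slope on the 3' to 5' difference was 0.10 ± 0.03 (unadjusted p = 0.00567, adjusted p = 0.229), which was 0.10 without rat 7 and 0.07 without rat 4. Rat 4 had the lowest and rat 7 the highest difference, and they held its lowest and highest values. Slopes were negative in 17 of 20 channel genes, against 58.3% of all probe sets, and in 19 of 20 with arrays centred on their medians, against 75.5%. They were negative in 11 of 20 after quantile normalization, against 47.1%, and in 11 of 20 without rat 7, against 64.6%. With this difference as a covariate, an alternative chosen after seeing the data, the Cacnb4 slope with startle was -0.12 (unadjusted p = 0.113) in place of -0.20.

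Of 10 gene pairs chosen for known relations, 6 had both genes above the filter, and p-values were adjusted over these 6 (two-sided permutation tests, n = 10 rats). Scn1a ran from 10.4 in rat 7 through 10.6 to 10.9 in rat 2. Pvalb, the parvalbumin gene of the fast-spiking interneurons that rely on Scn1a, was lowest in rat 7 too, at 9.47, and highest in rats 4 and 10 at 9.95. Their Pearson correlation was 0.728 (permutation p = 0.0183, adjusted 0.0588) and their rank correlation rho 0.842 (permutation p = 0.00352, adjusted 0.0211). The rank relation passed the adjusted threshold and the linear one did not. Without rat 2 the linear relation passed, while 0 of the 6 pairs passed by rank. Leaving out rats 2 and 7 gave a Pearson correlation of 0.785 (permutation p = 0.0189).

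For Scn1a and Scn8a the Pearson correlation was 0.724 (permutation p = 0.0196, adjusted 0.0588) and the rank value 0.685 (permutation p = 0.0344, adjusted 0.0688). Leaving out rats 2 and 7 took the Pearson value to 0.303, so the relation rested on them. The TARP genes Cacng2 and Cacng3 gave 0.518 by Pearson (permutation p = 0.146, adjusted 0.291; 0.545 when rats 6 and 8 were left out) and 0.709 by rank (permutation p = 0.0267, adjusted 0.0688). The remaining pairs gave smaller values. Cacna1c and Cacna2d1 gave 0.334 by Pearson (permutation p = 0.344, adjusted 0.515; 0.1 when rats 1 and 2 were left out) and 0.212 by rank (permutation p = 0.562, adjusted 0.675). Scn2a and Scn3a gave -0.0239 by Pearson (permutation p = 0.943, adjusted 0.996; -0.247 when rats 2 and 7 were left out) and -0.236 by rank (permutation p = 0.512, adjusted 0.675). The L-type genes Cacna1c and Cacna1d gave 0.0018 by Pearson (permutation p = 0.996, adjusted 0.996; -0.527 when rats 1 and 2 were left out) and 0.00606 by rank (permutation p = 1, adjusted 1).

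Of 35 listed partners of these channels, among them anchors, modulators and release machinery, 27 could be tested. In the behaviour fits 0 of 27 passed the adjusted threshold, and at an unadjusted p under 0.05 there were 2 for startle, against 5.59% of all probe sets, 1 for locomotion, against 2.93%, 0 for sugar feeding, against 2.13%, 2 for prepulse inhibition, against 7.41%, and 0 for the plus maze score, against 6.95%. Unc79, part of the sodium leak channel complex, had -0.11 ± 0.04 with startle (unadjusted p = 0.0118), Unc80 of the same complex -0.10 ± 0.03 with prepulse inhibition (unadjusted p = 0.0182), and Cabp1, a calcium-binding modulator of calcium channels, 0.19 ± 0.07 with prepulse inhibition (unadjusted p = 0.0171). The Cabp1 slope was 0.07 without rat 1 and the Unc80 slope -0.06 without rat 2. Slopes with startle were negative in 24 of 27 partners and with prepulse inhibition in 23, against 62.3% and 58.7% of all probe sets. After quantile normalization these shares of all probe sets were 43.3% and 42.9%, and partners were not counted by sign. In the upper 25% by mean, with 25 partners tested, 27.0% and 31.1% of probe sets had positive slopes. Partner slopes were negative in 2 of 27 with the spike-in level, against 29.8%, and in 20 with the 3' to 5' difference, against 58.3%.

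With a marker level, 1 of 27 partners passed, against 1.87% of all probe sets in that fit: Rimbp2, which ties presynaptic calcium channels to the release site, fell with the striatal level at -0.16 ± 0.03 (adjusted p = 0.0196), and had -0.14 ± 0.04 with the myelin level (adjusted p = 0.0866). The striatal call was lost after quantile normalization (adjusted p = 0.0672), without rat 2 (adjusted p = 0.0502) and without rat 4 (adjusted p = 0.0567). With the 3' to 5' difference, the vesicle calcium sensor gene Syt1 had -0.32 ± 0.06 (adjusted p = 0.0967) and Cntn1, a contactin of axonal membranes, -0.28 ± 0.06 (adjusted p = 0.108), beside -0.28 ± 0.13 for Cacna1d, the steepest of the tested channel genes. Without rat 7 the slopes were -0.15 for Syt1, -0.14 for Cntn1 and 0.08 for Cacna1d, and Cntn1 passed without rat 2 (adjusted p = 0.0463) and without rat 4 (adjusted p = 0.0420).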

How the data were processed

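Total RNA from the prefrontal cortex of 10 rats was hybridised to 1 Affymetrix array each. The deposited values are log2 summaries per probe set, made by the authors with GCRMA under R 2.6.2, per the submitters' processing notes. GCRMA corrects background by probe sequence, which compresses low values. The number of arrays limits the precision.

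Genes were named from the platform annotation where a probe set had 1 symbol. Of 31042 probe sets that were not array controls, the 15521 of highest mean (50%) were kept. Slopes were fitted in R 4.3.3 with limma 3.58.1 (lmFit, eBayes) on each score or level scaled to an SD of 1, two-sided, with Benjamini-Hochberg adjustment over all kept probe sets. A marker level is the mean of the centred log2 values of the listed markers above the filter. Correlations used 100000 permutations. The fit was tested on simulated data. Replicate numbers come from the labels, and nothing states whether RNA was processed in batches.

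The members, gene lists, pairs and tests were chosen with earlier results of these data known. Members described with slopes were taken from the 3 of smallest p per direction in a fit (2 for the plus maze score), the 6 of largest SD and a listed panel. Others were chosen after their values were seen, among them Tbr1, Camk2a, Adora2a, Unc80 and the probe sets that were not of highest mean.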

Additional observations from a re-analysis of the deposited data

Results flagged for a closer look

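For each of the 20 tested channel genes, the gap between the lowest or the highest rat and its nearest neighbour was set against the whole range of the 10 rats. A gap above Dixon's 95% critical value was found for 5 of these genes. For independent, normally distributed groups, chance alone gives such a gap in about 1 of 20. The genes share the same 10 rats and are not independent groups, and the share over all genes tested was not computed. The count is therefore a description and does not set the channel genes apart from other genes.

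In 3 genes the rat that stood apart was rat 7, at the low end. Cacna1d was at 4.82 log2 there, with the next rat at 6.01, Cacna1a at 7.69, with the next at 8.29, and the TARP gene Cacng3 at 9.70, with the next at 9.92. In Scn2a, rat 2 stood apart at the high end at 11.28, with the next rat at 11.03, and in Cacna1g rat 5 stood apart at 4.81, with the next at 4.68. Cacnb4, Cacna1b and Scn8a, in which rat 7 was also lowest, stayed below the critical value.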

How the results depend on the processing

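No paired analysis was possible because the design has 1 array per animal and no second condition. The counts of channel genes past the adjusted threshold were recomputed under 222 alternatives over the 11 scores and levels: 218 gave 0 and 4 gave 1. With the striatal level, Cacna1d passed with the 3' to 5' difference as a covariate (count 1), an alternative chosen after seeing the data, and over fits without 1 rat the count was 0 to 1, with Cacna1d passing without rat 4. With the myelin level the same covariate gave 1, again Cacna1d. For the 3' to 5' difference itself, fits without 1 rat gave 0 to 1, with Cacnb4 passing without rat 2. Of partner genes, 1 passed over all fits, 0 after quantile normalization and 2 with the mean over the probe sets of a gene. With the striatal level fits without 1 rat gave 0 to 1 partner, with Rimbp2 not passing without rat 2 or rat 4. With the myelin level they gave 0 to 1 (Rimbp2 without rat 6), and the mean over probe sets gave 1. With the 3' to 5' difference they gave 0 to 1, with Cntn1 passing without rat 2 and without rat 4. Summed over the 11 scores and levels, 1 to 2 passed without 1 rat, not always the same gene. Of gene pairs, 0 to 1 passed on the linear r without 1 rat, with Scn1a and Pvalb passing without rat 2. By rank, 0 pairs passed in that fit without rat 2. The cause of these changes was not tested.

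Changes of sign were counted over 64 slopes, those of smallest p per direction in each fit. This set differs from the slopes described above. Some of the 64, such as Hcn2 with the meningeal level, are not described. Some described slopes, such as those of Cacna1d and Cacna1a with startle, are not among the 64. Of the 64, 47 kept their sign in every alternative, and of 1274 alternative values 23 turned sign. None of the 64 passed in its main fit. Leaving out 1 rat moved 55 of the 64 by over 1.5 times or turned their sign in at least 1 fit, and leaving out rat 7 moved 18. With the 4 main scores in 1 model, Hcn2 with startle was -0.024, Cacna2d3 and Cacnb2 with locomotion -0.034 and -0.0063, and Scn3b and Scn3a with sugar feeding -0.031 and -0.0035. With the mean over the probe sets of a gene, Cacng2 with startle was -0.0039, Scn2b with the plus maze score 0.065 and Scn2b with the activity level -0.0093. With the striatal level as a covariate, Cacnb2 was -0.011 with prepulse inhibition and -0.017 with the myelin level. After quantile normalization, Scn2b with the plus maze score was 0.00033 and Cacna1g with the 3' to 5' difference -0.0077. With centred arrays, Cacna1g and Cacna1c with that difference were -0.0067 and -0.0090. Without 1 rat, slopes that turned were those of Hcn2 with startle (-0.010 to 0.047), Cacnb2 with locomotion (-0.0037 to 0.083), prepulse inhibition (-0.0040 to 0.046) and the spike-in level (-0.054 to 0.033), Cacna1g with sugar feeding (-0.040 to 0.0040) and the plus maze score (-0.0051 to 0.069), Cacnb3 with prepulse inhibition (-0.029 to 0.065), Scn2b with the plus maze score (-0.066 to 0.022) and Cacna1d with the activity level (-0.037 to 0.12). This list covers the 64 slopes only. The Cacna1d slope with the 3' to 5' difference, not among them, was negative over all rats and positive without rat 7. Signal over background limits what the 18 genes below the filter can show.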
